A study of Drosophila melanogaster with 3 samples.

Results

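The sensory bristle lineage genes examined here are 10 Drosophila melanogaster genes. The set is grouped as acting between the choice of a bristle precursor and the growth of the bristle shaft. They are achaete (ac), scute (sc), senseless (sens), numb, neuralized (neur), brain tumor (brat), prospero (pros), tramtrack (ttk), shaven (sv) and singed (sn). For brat the role given below is the one known from neuroblasts. The genes were chosen by name, with earlier results of these data known. They are 10 of the 13945 protein-coding genes annotated on the 6 chromosome arms. Each gene was given a window made of its body and the 5 kb upstream of its first start site, and every peak summit inside that window was listed. Occupancy of Sox15 had been mapped by chromatin immunoprecipitation with sequencing (ChIP-seq) in whole prepupae, animals that have just formed the puparium. The animals, males and females pooled and of unknown age, came from the transgenic Sox15-GFP line, which stably makes Sox15-eGFP, a Sox15 protein with GFP at its C-terminus. All 3 biological replicates carried this transgene and were precipitated with an anti-GFP antibody, so the study has 1 group and no contrast, and no test between conditions exists. The lists came from whole animals, so a peak cannot be assigned to bristle cells, and strong occupancy in few cells cannot be told apart from weak occupancy in many.

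A Drosophila bristle arises from 1 sensory organ precursor. Proneural proteins select that cell, and Notch signalling between neighbours keeps the others epidermal. The precursor then divides asymmetrically, and its descendants become the shaft, the socket, the neuron and the sheath cell, each division being biased by determinants that block or promote Notch signalling in a single daughter. Sox15 is an HMG-domain transcription factor of the Sox family, known in this lineage for its expression in the socket cell. Sox proteins generally bind DNA at short sequences with the core ACAAT.

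The DNA at the strongest summit of the authors' reproducible list is shown for each member with one, because these stretches carry the occupancy described next. Each is 201 bp long, is centred on the summit at position 101, and is written as the plus strand of dm6 from the RefSeq Release 6 genome. Capitals mark ACAAT or its reverse complement ATTGT. For brat a further summit, chosen after its values were seen, is included because a capital run lies 2 bp from its summit.
numb, chr2L:9449491-9449691: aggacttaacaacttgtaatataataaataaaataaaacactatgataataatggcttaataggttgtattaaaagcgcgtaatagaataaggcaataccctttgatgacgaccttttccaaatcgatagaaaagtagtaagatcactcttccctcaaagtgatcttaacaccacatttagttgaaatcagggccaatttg
neur, chr3R:9031938-9032138: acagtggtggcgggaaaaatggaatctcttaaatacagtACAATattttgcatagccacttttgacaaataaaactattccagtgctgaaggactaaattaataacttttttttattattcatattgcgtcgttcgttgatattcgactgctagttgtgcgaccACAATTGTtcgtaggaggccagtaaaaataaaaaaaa
brat, chr2L:19165053-19165253: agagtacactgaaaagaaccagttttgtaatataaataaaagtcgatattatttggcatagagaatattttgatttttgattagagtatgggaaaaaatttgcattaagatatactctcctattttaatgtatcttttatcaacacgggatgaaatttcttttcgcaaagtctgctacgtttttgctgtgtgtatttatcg
brat, chr2L:19136803-19137003: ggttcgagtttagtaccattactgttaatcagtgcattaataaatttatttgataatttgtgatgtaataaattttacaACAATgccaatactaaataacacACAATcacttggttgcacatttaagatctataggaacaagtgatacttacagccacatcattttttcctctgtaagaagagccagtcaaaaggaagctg
ttk, chr3R:31717319-31717519: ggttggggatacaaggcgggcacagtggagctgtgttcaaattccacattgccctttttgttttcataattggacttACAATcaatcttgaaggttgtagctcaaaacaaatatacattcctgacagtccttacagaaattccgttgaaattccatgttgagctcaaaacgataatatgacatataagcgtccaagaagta
ac, chrX:366929-367129: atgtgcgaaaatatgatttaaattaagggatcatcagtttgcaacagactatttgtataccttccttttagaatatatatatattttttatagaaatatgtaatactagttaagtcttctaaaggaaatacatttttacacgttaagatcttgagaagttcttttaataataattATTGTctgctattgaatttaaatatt
sn, chrX:7972456-7972656: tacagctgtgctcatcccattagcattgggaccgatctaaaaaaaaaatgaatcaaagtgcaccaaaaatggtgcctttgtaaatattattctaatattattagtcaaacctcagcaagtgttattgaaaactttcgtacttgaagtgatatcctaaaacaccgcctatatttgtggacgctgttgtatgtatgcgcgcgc
The strongest summits of neur, ttk and ac held the core, at 57, 19 and 75 bp from the summit, whereas those of numb, brat and sn held none within 100 bp.

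Of the 10 genes, 6 had at least 1 summit of the irreproducible discovery rate (IDR) set, the authors' reproducible list of 4555 peaks. They were numb with 3 summits, neur with 2, ttk with 3, brat with 8, ac with 1 and sn with 4, which makes 21 in all. Over all protein-coding genes, 32.8% had an IDR summit in the same kind of window, and among genes at least as long as ac, the shortest member with one, 36.1% did. The genes pros and sv had summits in the relaxed pooled and replicate lists but none in the IDR set. Thus 8 of the 10 members had a pooled summit, against 61% of all genes. The gene sens had summits in the relaxed lists of single replicates only. The gene sc had no summit in any of the 5 lists, and 14.3% of all genes were likewise without one. Per 100 kb, the windows of the members held 7.08 IDR summits, against 3.40 over the 6 arms. For the pooled list the same densities were 16.8 and 10.6. Unlike the windows, the arms include DNA far from genes, and no density over the windows of all genes is given. Among the members the IDR density ran from 0, as at pros, to 16.9 at ac, and brat alone held 8 of the 21 summits.

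**Figure D1:**
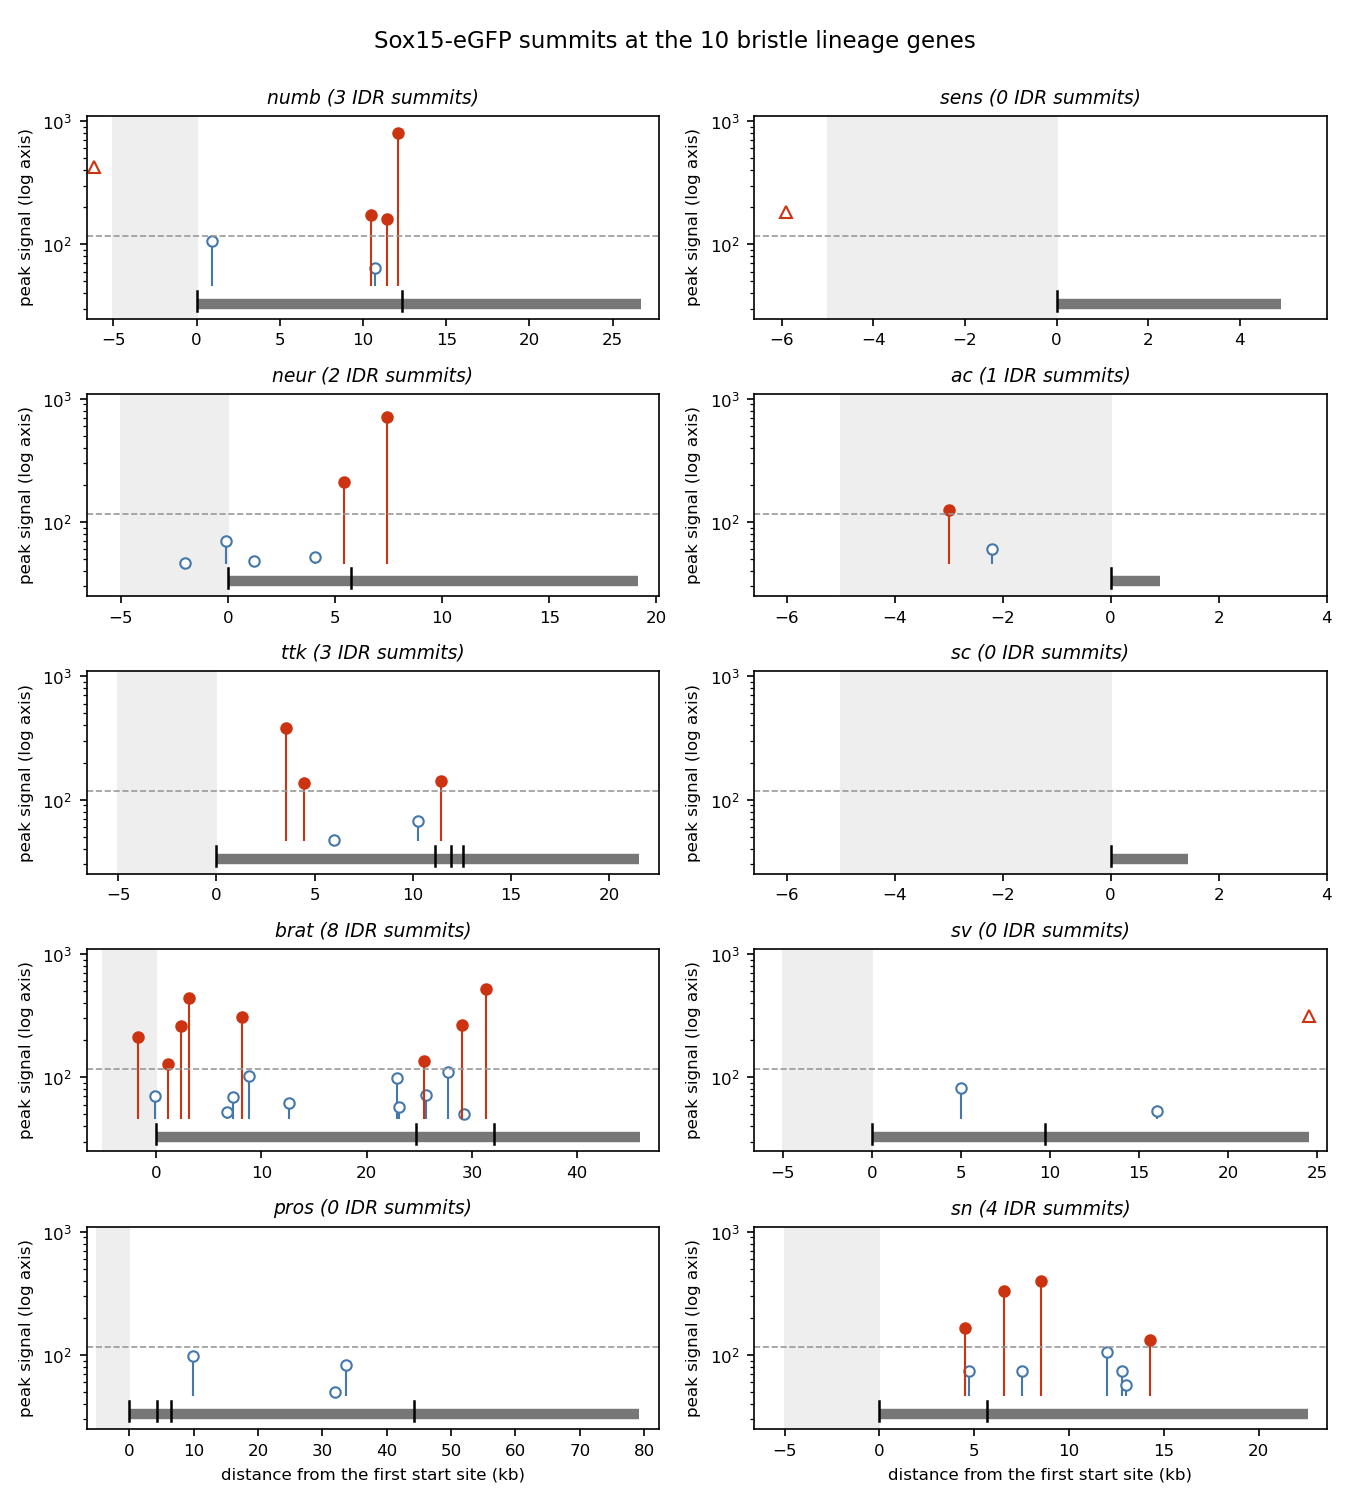
Summits at the 10 genes, with distance from the first start site (kb) on the horizontal axis and the authors' peak signal on a log axis; filled red points are IDR summits, open blue points pooled summits below the IDR set, open triangles IDR summits just outside the window, grey shading the upstream 5 kb, the thick bar the gene and ticks its start sites. The dashed line is the lowest signal of the IDR set, 117; brat carries 8 filled points, whereas the windows of pros, sens, sc and sv hold none.

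Long genes held summits more often, so the members were set beside genes of similar length. Of genes under 5 kb, 27.2% had an IDR summit, and of the 3 short members ac had one whereas sens and sc did not. Of genes of 5 to 20 kb, 46.5% had one, as neur did. Of genes of 20 to 50 kb, 55.2% had one, and numb, ttk, brat and sn did whereas sv did not. Of genes over 50 kb, 63.2% had one, and pros, the longest member at 79.1 kb, belonged to the 36.8% without. Read against these shares, having a summit was common at the lengths of numb, neur, ttk, brat and sn, where 46.5% to 55.2% of genes had one. The number of summits in brat was less common: 10 of the 706 genes of its length class, or 1.42%, had 8 or more. At 45.9 kb, however, brat is near the upper bound of that class, so the share is not closely matched for length. Several of the 8 summits also lay nearer to the start site of a neighbouring gene. For sn the corresponding share, with 4 or more, was 12.3%, and for numb and ttk, with 3 or more, it was 22.2%. For neur, with 2 or more, it was 17.9% of 2471 genes. At 19.1 kb neur is likewise near the upper bound of its class. Neither that share nor the 46.5% is closely matched to its length.

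**Figure D2:**
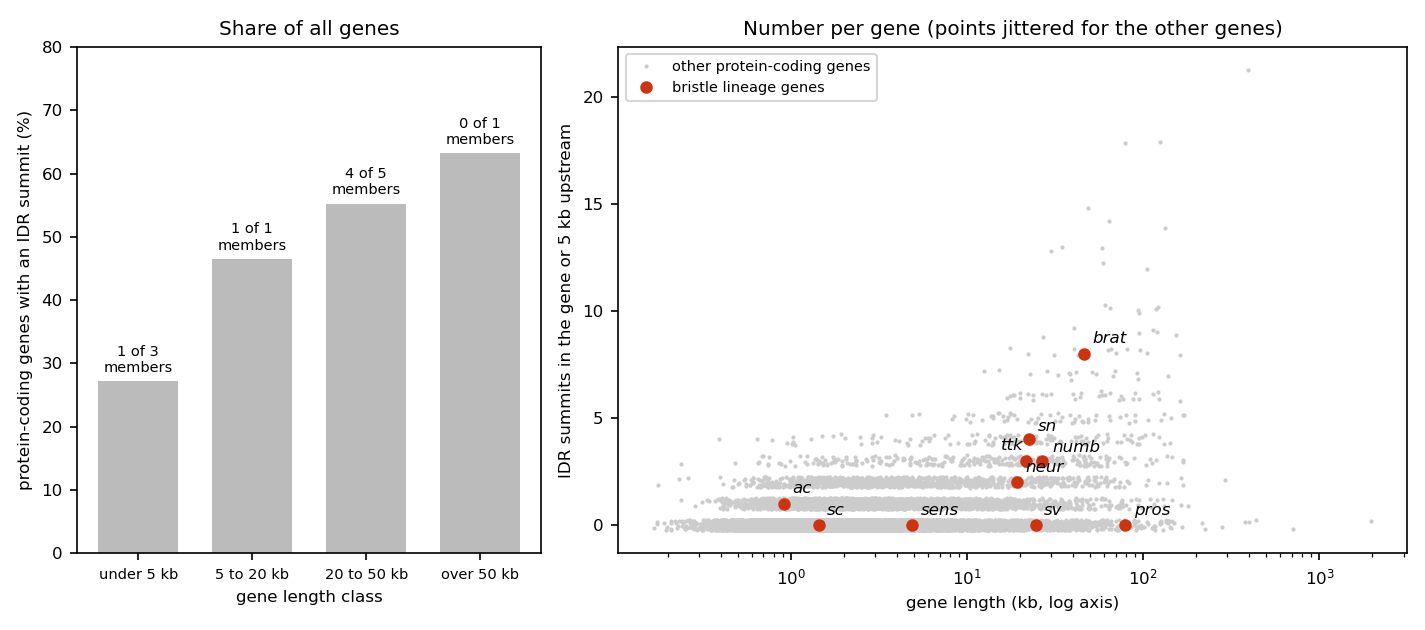
Left, percentage of all protein-coding genes with an IDR summit by class of gene length, with the members counted above each bar; right, number of IDR summits per gene (vertical axis) against gene length in kb (log axis), with other genes in grey. The share rises from 27.2% to 63.2% over the classes, brat stands high among genes of its length, and pros lies at 0 among the longest.

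Of the 3 genes that select and maintain the precursor, only ac had an IDR summit, and it was the weakest of the 21. The proneural gene ac (FBgn0000022, X, 370031 to 370947, plus strand) encodes a basic helix-loop-helix activator. Its single IDR summit lay 3002 bp upstream of its start site, in the last exon of the long non-coding RNA gene lncRNA:yar, with a signal of 126 and rank 4179 in the pooled list, near the lower edge of the IDR set. The signal there was 55.6 in replicate 1, 33.1 in replicate 2 and 25.2 in replicate 3, with ranks of 4793, 4333 and 5125. Only replicate 2 placed it among its 4555 strongest peaks, although the summits of the 3 replicates lay within 8 bp of each other. A weaker pooled peak, with a signal of 60.6, lay at X position 367838 in the same upstream region and was seen in 2 replicates.

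The paralog sc (FBgn0004170, X, 396060 to 397497, plus strand), which encodes the other proneural protein of this pair, had no summit in the gene or its upstream 5 kb in any list. The nearest IDR summit lay 4736 bp beyond its window, between ac and sc, with a signal of 129. A count of 0 here says only that no peak was called at the authors' thresholds, since the files give no coverage outside peaks.

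Senseless (FBgn0002573, 3L, 13396228 to 13401125, minus strand), a zinc-finger protein that keeps proneural expression high in the precursor, had 3 summits in replicate 1, 2 in replicate 2 and 0 in replicate 3, and none in the pooled or IDR list. Those in replicates 1 and 2 at its start site, 4 and 3 bp from it, lay at nearly the same position. Their signals were 19.1 in both lists, with ranks of 18543 of 19304 and 8174 of 19033. In replicate 1 this places the peak close to the bottom of the list. An IDR peak with a signal of 183, matched in all 3 replicates, lay 903 bp beyond the upstream window in intergenic DNA. A weaker one, with a signal of 126, lay 4193 bp beyond it.

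Of the members grouped under asymmetric division and Notch control, numb, neur and brat held the strongest peaks of the set, beside weaker ones. The fourth, pros, held no IDR peak. Numb (FBgn0002973, 2L, 9437469 to 9464184, plus strand) is the membrane-associated inhibitor of Notch that passes to a single daughter cell. Its top summit, at 9449591, had a signal of 805 and rank 183 of 14164, the highest of any member. It lay 239 bp upstream of the downstream start site of the gene, 12122 bp from the first, and inside an intron of the long transcript. The signal was 399 in replicate 1, 238 in replicate 2 and 209.7 in replicate 3, and its ranks were 180, 162 and 141. The peak was thus near the top of every list. The replicate 3 peak was narrow and covered 29.5% of the IDR peak, so by the overlap rule of 50% it counted as matched in replicates 1 and 2 only.

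The other IDR summits of numb lay in the same intron, 904 and 1862 bp upstream of the downstream start site, with signals of 159 and 173. The closer of them ranked 5520, 1981 and 1811 in replicates 1, 2 and 3, and the farther one 2185, 2884 and 4862. The order of these 2 peaks therefore differed between the replicates. Near the first start site the pooled list held a peak with a signal of 106, below the IDR set but seen in all 3 replicates. A strong IDR peak with a signal of 420.5 lay 1138 bp beyond the upstream window, at the start site of the neighbouring gene scat.

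Neuralized (FBgn0002932, 3R, 9020348 to 9039471, minus strand) is the ubiquitin ligase that activates the Notch ligand Delta in the signal-sending cell. Its stronger summit, at 9032038, lay in an intron 1693 bp downstream of its downstream start site, with a signal of 704 and rank 262. The signal was 340.2 in replicate 1, 213 in replicate 2 and 152 in replicate 3, and the ranks were 267, 208 and 307. All replicates placed it high, with summits 17 bp apart at most. The weaker summit, at 9034043, lay 312 bp upstream of the downstream start site with a signal of 209 and ranks of 1737, 2365 and 4871. The pooled list held 4 further peaks in the gene and its upstream region, with signals of 46.5 to 70.7.

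Brain tumor (FBgn0010300, 2L, 19133816 to 19179758, plus strand) encodes an NHL-domain repressor of translation, known from neuroblasts, where it is inherited by the differentiating daughter. Its 8 IDR summits fell into a group of 5 around the first start site and a group of 3 around the downstream start sites, with 17324 bp between the groups. The strongest, at 19165153, lay in an intron 714 bp upstream of the third start site, with a signal of 523 and rank 480. Its ranks were 503, 556 and 398 in replicates 1, 2 and 3. The second strongest, at 19136903, lay in an intron 3087 bp downstream of the first start site, with a signal of 439.8 and ranks of 635, 684 and 966. Both belonged to the top 1000 peaks of every replicate.

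Of the other brat summits, those at 19141961, 19162861 and 19136166 were intronic, with signals of 310.4, 265 and 261, and were matched in all 3 replicates. The summit at 19132105, upstream of the gene, had a signal of 212 and lay 151 bp from the start site of AsnRS. The summit at 19134903, with a signal of 127, lay 330 bp from the start site of Polr1D. The summit at 19159285, with a signal of 136, lay at the start site of lncRNA:CR44977, and 745 bp downstream of the second brat start site. For these 3 promoter summits the call by window does not tell brat from the neighbouring or nested gene. The intronic summits at 19136166, 19136903 and 19141961 also lay nearer to the start site of Polr1D, at 933, 1670 and 6728 bp, than to that of brat, at 2350, 3087 and 8145 bp. The second-strongest peak of the window is among them. Below the IDR set brat also had 10 pooled peaks, the strongest with signals of 111 and 103.

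Prospero (FBgn0004595, 3R, 11328480 to 11407627, plus strand), a homeodomain protein present in the branch of the lineage that gives the neuron and the sheath cell, had no IDR summit over its 79.1 kb. Its 3 pooled peaks had signals of 98.1, 83.5 and 49.6. The first, at 11338460, was seen in replicates 1 and 3 with signals of 47.7 and 37.5, but not in replicate 2. The second, at 11362155, was seen in all 3 replicates with signals of 33.2, 26.6 and 21.5. The nearest IDR summit lay 2324 bp past the end of the gene, at the start site of mgr, with a signal of 258.

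Of the cell-fate genes ttk and sv, only ttk had an IDR summit in its window. Tramtrack (FBgn0003870, 3R, 31713867 to 31735392, plus strand), a BTB zinc-finger repressor that blocks neural fate in the outer cells, had 3 IDR summits. The strongest, at 31717419, lay in an intron 3552 bp downstream of the first start site with a signal of 384. The signal was 193 in replicate 1, 91.04 in replicate 2 and 98.3 in replicate 3, with ranks of 853, 1102 and 750. The summit 900 bp further on had a signal of 135 and ranks of 3451, 4305 and 5511. The last, at 31725288, lay 292 bp downstream of the second start site with a signal of 143 and ranks of 3935, 4151 and 3621. The first of these stood well above the others in every replicate.

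Shaven (FBgn0005561, chromosome 4, 1088798 to 1113317, plus strand), the Pax2 homologue needed for shaft differentiation, had no IDR summit in its window. Its pooled peaks had signals of 81.6 and 53.6. The stronger, at 1093776, was seen in all 3 replicates and its summit fell inside an annotated copy of the transposable element INE-1 (1093721 to 1093850). Such a repeat occurs at many places, and how reads from repeats were placed is not given in the sources used here. An IDR peak (4, 1113147 to 1113542) with a signal of 314 and rank 1197 straddled the 3′ end of the gene, with its summit 28 bp past that end. It was matched in all 3 replicates, and replicate 2 put its own summit at 1113284, inside sv. If any part of a peak is counted in place of the summit, sv becomes the seventh member with an IDR peak. The region overlaps the gene Cals, so the 3′ position does not tell the genes apart.

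Singed (FBgn0003447, X, 7964024 to 7986601, plus strand) encodes fascin, the actin-bundling protein of the growing shaft, and is the structural gene of the set. Its strongest summit, at 7972556, lay in an intron 2853 bp downstream of the second start site with a signal of 400.5. The signal was 182 in replicate 1, 128 in replicate 2 and 85.6 in replicate 3, with ranks of 940, 619 and 934 and summits within 6 bp, the smallest spread among the 21. The next, at 7970576, lay 873 bp downstream of the second start site with a signal of 329 and ranks of 1063, 1253 and 1234. The summit at 7968526, with a signal of 164, lay 290 bp from the start site of the overlapping gene sws. The summit at 7978296, deep in the gene, had a signal of 133. The pooled list added 5 weaker peaks, of which the one with a signal of 106 was seen in all 3 replicates.

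**Figure D3:**
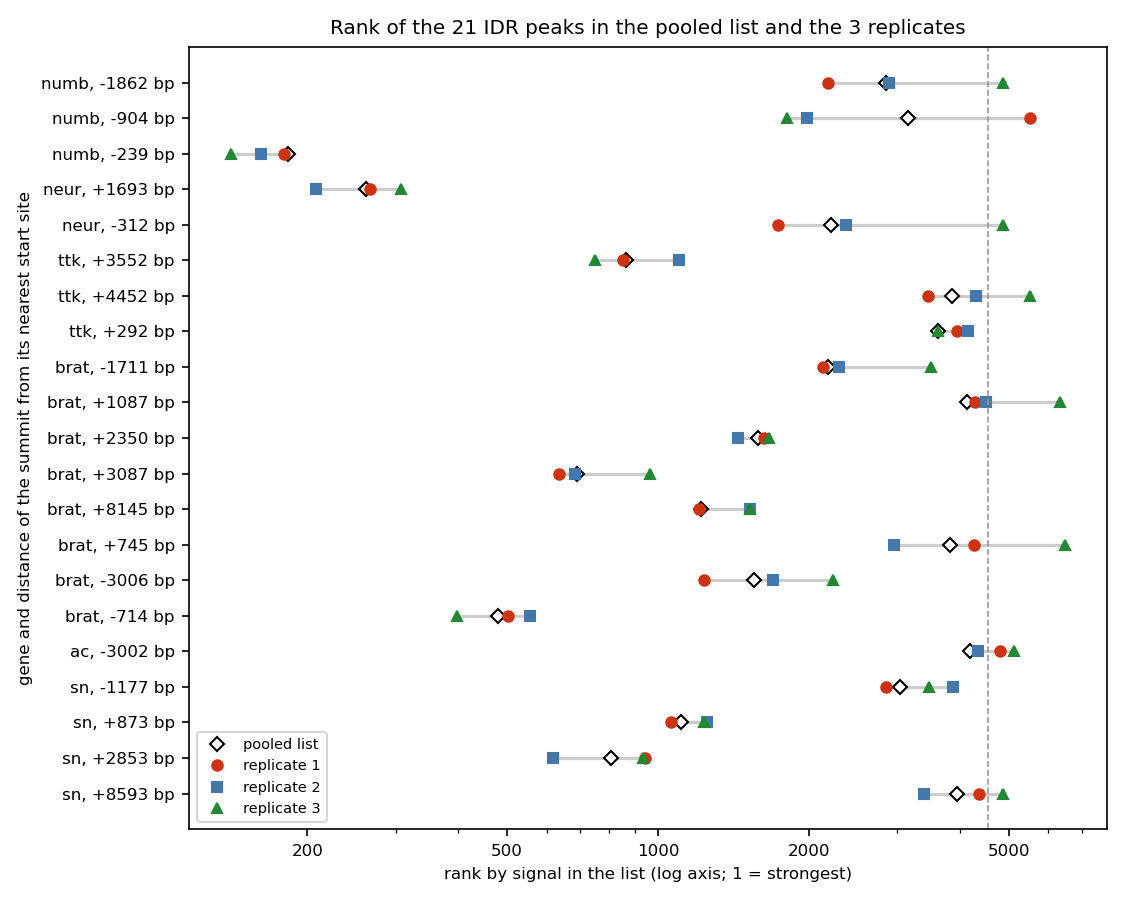
Rank of the 21 IDR peaks by signal (log axis, 1 is the strongest) in the pooled list and in each replicate, one row per peak named by its gene and its distance from the nearest start site of that gene; the dashed line marks rank 4555. Ranks of the strongest peaks of numb, neur and brat stay close together, while weak peaks such as that of ac cross the line in some replicates; the lists differ in length, so ranks are read within a list.

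Across the 21 IDR peaks the signal ran from 126 to 805 with a median of 212, against a median of 205 for the whole IDR set. The 2277 IDR peaks of highest signal held 12 of them, and the upper 10% of the set held 2, those of numb and neur. In all 3 replicates 12 of the 21 peaks were matched, 8 were matched in 2 and 1, that of ac, in 1. Of all IDR peaks 73.4% were matched in every replicate. With the whole relaxed lists in place of their strongest 4555 peaks, 20 of the 21 were matched in every replicate, against 95.7% of all IDR peaks. The IDR set was made from the pool of these replicates, so the match is not independent of the call. Summits of 1 peak in the 3 replicates were 6 to 172 bp apart, with a median of 24 bp.

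In their positions the 21 summits were mostly intronic. An intron was the class of 13 and a promoter, within 500 bp of any start site, the class of 7, while 1 lay in a non-coding exon. Of all IDR summits 40.7% were intronic and 41.3% were in promoters. The rule itself keeps most intergenic summits out of the windows, so these shares are not comparable without that limit. Of the 7 promoter summits, 3 were at a start site of the member itself (numb, neur and ttk) and 4 at that of another gene only (3 in brat, 1 in sn). Inside the member gene lay 19 summits, and 16 lay in the first intron of at least 1 transcript. For 15 the nearest coding start site belonged to the member. The 3 promoter summits at a member start were each at a downstream start site, not at the first one.

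The weaker peaks of the pooled list added 29 summits in 8 members, with signals of 46.5 to 111 and a median of 69.2. In all 3 replicates 7 of them were seen, in 2 replicates 14, in 1 replicate 5, and 3 in none. A replicate summit was counted only for the pooled summit nearest to it and at most 200 bp away. Of the 29 peaks, 6 lay within 250 bp of a stronger pooled summit, as at numb 9448168, 200 bp from the IDR summit at 9447968. Of 162 replicate summits in the member windows, 122 lay within 200 bp of a pooled summit, and of the other 40 only 4 had a counterpart in another replicate. Among the latter were those at the sens start site. The same counts were not made over all weaker pooled peaks or all replicate summits. Whether this recurrence differs from that of other genes therefore cannot be read from them.

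Sequence around the summits was searched on both strands within 100 bp for 10 short patterns, and shares are given beside those of all 4555 IDR summits and of all tiles of 201 bp on the arms. The Sox core ACAAT occurred at 9 of 21 summits, 42.9%, in all 6 genes. It was present at 51.3% of all IDR summits and in 44.6% of tiles. The longer AACAAT, which contains it, occurred at 4, or 19.0%, against 24.6% and 19.97%. Both shares at the members were below those of all IDR summits and of tiles in this window and within 50 bp, where ACAAT was at 4 summits, 19.0% against 31.5% and 25.6%. Within 250 bp the order changed: ACAAT was at 17 summits, 81.0% against 78.6% and 75.9%, and AACAAT at 9, 42.9% against 47.7% and 42.1%. Of the patterns named for factors of this lineage, the proneural E-box CAGCTG, a palindrome, occurred at 2 summits, in brat and sn, or 9.52%, against 6.92% and 8.39%. Within 50 bp this E-box was at 1 summit, or 4.76%, against 2.48% and 4.24%. Within 250 bp it was at 7 summits in 4 genes, or 33.3%, against 22.8% and 19.5%. The pattern GTGGGAA, bound by Su(H), the DNA-binding partner of Notch, occurred at none, and at 1.98% of all IDR summits.

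AAATCA, the core named for Sens, occurred at 10 of the 21 summits, 47.6%, in 5 genes, against 25.9% of all IDR summits and 21.1% of tiles. Within 50 bp of the summit it occurred at 4, or 19.0%, against 15.0% and 11.1%, and within 250 bp at 14, or 66.7%, against 46.6% and 44.3%. Its share at the members was thus the highest of the 3 in each window. Summits of the same gene recur among the 10, in numb, brat and sn, so they are not independent genes. The GATA pattern AGATAA occurred at 4 summits, 19.0%, against 15.2% and 10.9%, but at none within 50 bp, against 8.69% and 5.57%. ACAAAG, the form shared with TCF, occurred at 2, or 9.52%, against 13.2% and 14.1%, but its share was the higher one within 50 bp, at 9.52% against 6.37% and 7.23%, and within 250 bp, at 42.9% against 33.7% and 31.7%. The homeodomain core TAATTA, a palindrome, occurred at 3, or 14.3%, against 19.3% and 12.5%, and within 50 bp at 1, or 4.76%, against 10.9% and 6.47%. ATCGAT, the DRE core and also a palindrome, occurred at 1, or 4.76%, against 7.33% and 6.01%, and at that same summit within 50 bp, against 3.34% and 3.03%. GAGAG, read by the GAGA factor, occurred at 5, or 23.8%, against 19.0% and 21.5%, and all 5 were in brat. Within 250 bp it was at 15 summits in 5 genes, or 71.4%, against 52.1% and 44.8%, so its restriction to brat did not hold in the wider window. The windows of the members had a median GC content of 30.8%, ranging from 19.9% to 41.3%, against 33.8% at all IDR summits and 42.3% in tiles. The part of base composition in the pattern counts was not tested. A match is a description of letters and not a binding site.

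**Figure D4:**
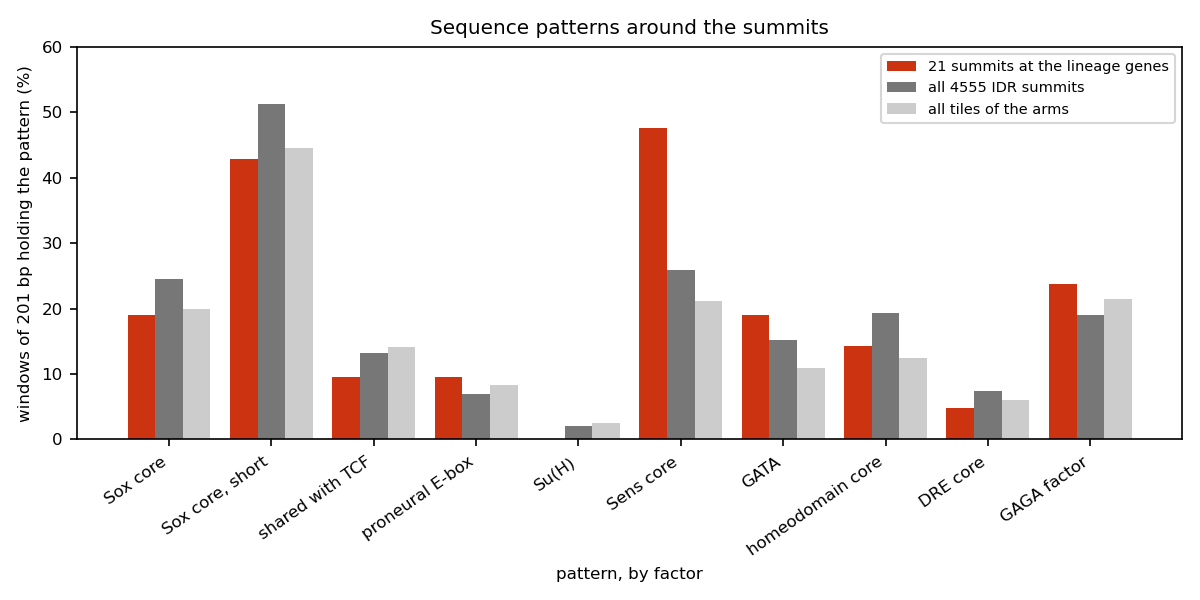
Percentage of windows of 201 bp that hold each of the 10 patterns, at the 21 member summits (red), at all 4555 IDR summits (dark grey) and in all tiles of the arms (light grey); the horizontal axis names the factor of each pattern. The red bar for the Sens core reaches 47.6% against 25.9% and 21.1%, and that for the short Sox core 42.9% against 51.3% and 44.6%.

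Other genes of bristle development were examined in the same way, as a list of 44 in 4 groups. The list was fixed with earlier results of these data known. An IDR summit was found in 24 of them, 54.5%, beside 6 of the 10 lineage genes and 32.8% of all genes, shares that were not matched for gene length. Among patterning and proneural regulators 5 of 15 had one, led by chn with a signal of 1045, emc with 248 and da with 202, the last at the start site of mRpS7. No IDR summit was found in l(1)sc, ase, ato and amos, the bHLH proneural-type genes related to ac and sc. These genes are all under 5 kb, a length class in which 72.8% of genes had none. The pooled list held a peak in l(1)sc, with a signal of 83.9. Among Notch pathway genes 5 of 9 had one, led by the corepressor gene gro with 915, E(spl)mgamma-HLH with 533 and the receptor gene N with 530.2. Among asymmetric division genes 6 of 9 had one, led by aPKC with 474, par-6 with 463 and baz with 426, which encode the apical polarity complex. Among fate and differentiation genes 8 of 11 had one, led by elav with 749.8, ct with 294 and dsx with 267. The summits of E(spl)mgamma-HLH, N, aPKC and par-6 lay nearer to the start site of another gene than to their own. The socket gene Sox15 itself had 1, with a signal of 214, at the start site of RpS23 and 4198 bp from its own.

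**Figure D5:**
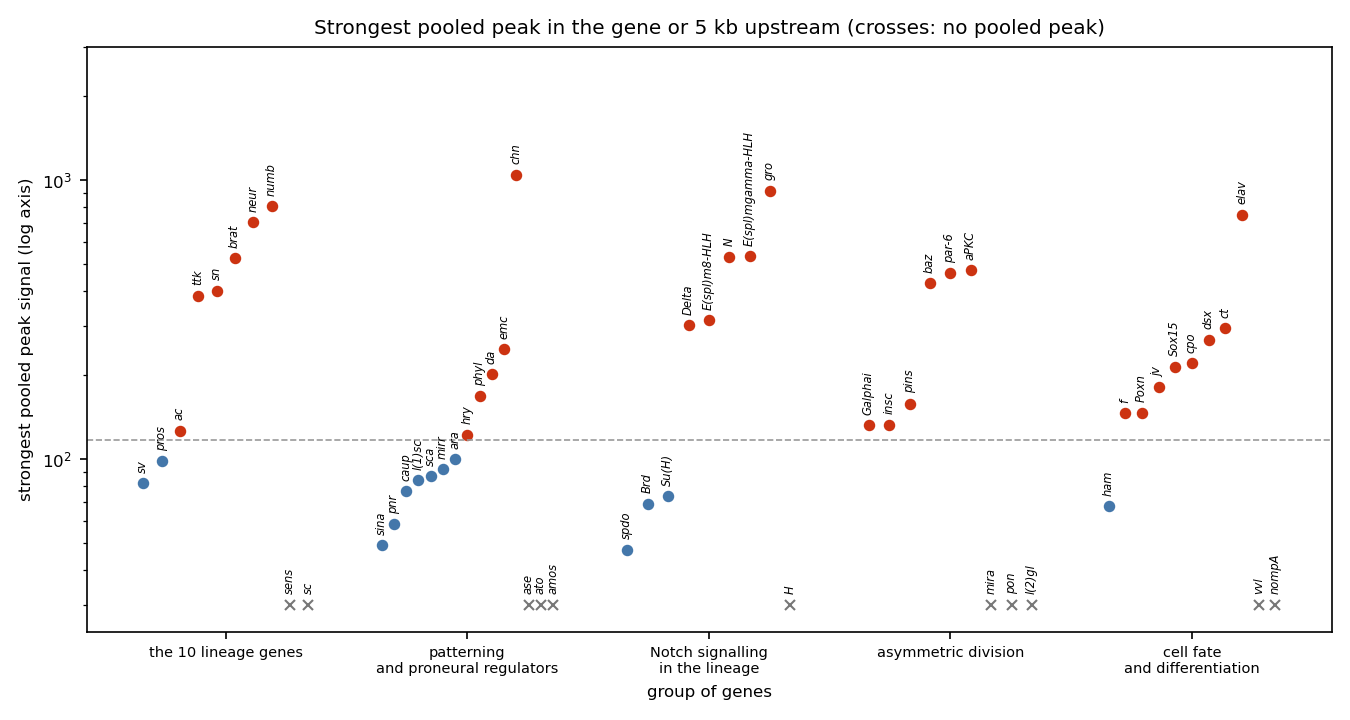
Signal of the strongest pooled peak (log axis) in the gene or its upstream 5 kb for the 10 lineage genes and the 44 other bristle genes by group; red points are in the IDR set, blue points below it (dashed line at 117), and crosses are genes with no pooled peak. Numb and neur, at 805 and 704, lie among the highest points, chn and gro lie above them at 1045 and 915, and sens and sc are among the crosses.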

How the data were processed

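Peak lists of 3 biological replicates of Sox15-eGFP prepupae formed 1 group. The deposited dm6 lists were used: a relaxed list per replicate (19304, 19033 and 16102 peaks), a relaxed pooled list (14164) and the optimal IDR set (4555), named so in the deposited file listing. The dm3 lists were not used. A control file named in that listing as an input was not analysed here. For the read alignment and the peak calling, no program is given in the sources used here. Signal values were deposited by the authors as a score per peak, of unstated scale, and served for ranking and description inside a single list. Each peak further has a −log10 q-value, deposited by the authors and not used for any count. The 4555 IDR peaks were the pooled peaks of highest signal. No read counts were given, so depth is unknown and the number of libraries limits precision.

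Gene models came from Ensembl release 115 (BDGP6), without transposable elements, and sequence from RefSeq Release 6. Summits were placed in gene bodies and 5 kb upstream. Replicates were matched at 50% of the IDR peak length within their 4555 strongest peaks. Members and lists were chosen with earlier results of these data known. All members are named; of other bristle genes, the 3 of highest IDR signal per group and Sox15, and neighbours whose start site is nearest to a member summit. Genes with other symbols in the annotation (h as hry, Dl as Delta) were matched by synonym. Genes named for having no peak, neighbours of peaks outside the windows and the length classes were chosen after values were seen. Matching and pattern search were tested on simulated data. Tools were Python 3.11.15, pandas 2.3.3, numpy 2.4.6 and matplotlib 3.10.9. Alternatives covered the window, signal threshold, overlap, replicate left out and pattern window. No p-value was computed.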

Additional observations from a re-analysis of the deposited data

How the results depend on the processing

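The number of members with an IDR summit, 6, ranged from 4 to 8 over the alternatives. It was 5 with the gene body only or 1 kb upstream (ac lost), 8 with 10 kb upstream (sens and sc gained), 5 for the 2277 IDR peaks of highest signal and 5 within 1 kb of a start site. When only peaks matched in both remaining replicates were kept, leaving out each replicate in turn gave 4 to 5 members and 12 to 19 summits in place of 21. Without replicate 2, 12 summits were left and both ac and numb were lost, since no numb peak was matched in both replicates 1 and 3. For the top numb peak, ranked 180 and 141 there, this came from the overlap rule of 50%. Its narrow replicate 3 peak covered 29.5% of the IDR peak. Without replicate 1, 13 were left; ac was also lost there and without replicate 3. Counting any part of a peak, an alternative chosen after seeing the data, gave 7 members and 22 peaks. The number of summits was 12 among the 2277 strongest and 7 within 1 kb of a start site. Members without any summit numbered 2 with the gene body only, 2 with 1 kb upstream and 0 with 10 kb upstream. The share of all genes with an IDR summit, 32.8%, moved with these settings as well. It became 10.8% for the gene body only, 22.8% with 1 kb upstream and 43.2% with 10 kb upstream. For the 2277 strongest peaks it was 20.4%, and within 1 kb of a start site 19.3%. The 12 peaks matched in every replicate became 2 when 90% overlap was asked (22.8% of all IDR peaks) and 20 with the whole relaxed lists. Pattern shares relative to all IDR summits or tiles changed order with the window for both forms of the Sox core and the GATA, TCF, homeodomain and DRE patterns, and the GAGA factor pattern was in brat alone only within 50 and 100 bp. Coverage outside peaks was not analysed here, so a gene without a peak is one without a call.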
